A study of Mus musculus with 10 samples.

Results

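Genes of the lysosome were followed in bEnd.3 cells, a line of immortalised endothelial cells from mouse brain, after exposure to StcE, a bacterial mucinase that cleaves proteins densely covered with mucin-type O-glycans. The set was a fixed list of 41 gene names for lysosomal hydrolases, membrane proteins, subunits of the proton pump and the factors *Tfeb* and *Tfe3*, looked up by name among the 27024 named rows of the expression table. The list was chosen with earlier results of these data known. A row was found for 40 of the names. The remaining name, *Limp2*, is an older name of *Scarb2* in RefSeq, so the list held 40 different genes. One group of 5 samples received 5 nM StcE and the other group of 5 an equal volume of saline, both in growth medium for 16 h, and all cells were wild-type bEnd.3. None of these 10 samples received an inactive form of the enzyme, the cells came from a single line, and nothing in the labels says whether the samples came from separate cultures, so that p-values measure only the spread between these samples. Values are FPKM (fragments per kilobase of gene, scaled for the depth of the sample). They account for gene length and depth but not for differences between samples in the make-up of their RNA. Summed over all named rows, they ran from 319733 in saline replicate 2 to 352365 in saline replicate 1.

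Lysosomes break down proteins, glycans and lipids with acid hydrolases, which are made in the endoplasmic reticulum, tagged with mannose 6-phosphate and delivered through endosomes. The V-ATPase, a proton pump with a membrane sector (V0) and a soluble sector that hydrolyses ATP (V1), keeps the lumen acidic enough for them to work. TFEB and TFE3 are transcription factors that bind an E-box element found near the start of many lysosomal genes. In brain endothelium, as in other cells, lysosomes also receive proteins and proteoglycans taken in from the cell surface.

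The cells carried endothelial transcripts. All 10 endothelial markers examined had a mean of at least 1 FPKM, and their summed level was 1757 to 1897 FPKM with saline and 1670 to 1766 FPKM with StcE. Of these 10, 4 were lower and 0 higher past the threshold described below, which 11.9% of all tested genes passed. Markers of macrophages and microglia, cells rich in lysosomes, were low, and 4 of 10 had no row in the table. The others summed to 0.661 to 1.63 FPKM with saline and 0.591 to 0.848 FPKM with StcE. *Lyz2* was the highest of them, at 0.513 to 1.44 FPKM with saline and 0.392 to 0.745 FPKM with StcE, and was not tested. *Ptprc*, which marks all leukocytes, was at 0 in every saline sample and at most 0.00198 FPKM with StcE. Of 9 pericyte and fibroblast markers, 7 had a row, and they summed to 1.39 to 1.62 FPKM with saline and 1.35 to 1.69 FPKM with StcE, with 1 of them (*Pdgfra*) above the filter and not past the threshold. The depth recovered from the table was 21864604 to 33147402 fragments per sample. In bulk RNA, fewer cells of a type and less RNA per cell cannot be told apart.

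Most lysosomal genes were well expressed. After a filter that kept genes with a mean of at least 1 FPKM over all 10 samples, 39 of the 40 genes remained among 11062 tested genes. Their median level was 21.4 FPKM against 8.30 FPKM for all tested genes, and 30 of the 39 were above that median. The highest levels were those of *Psap* (301.5 FPKM, mean of 10 samples), *Lamp1* (220.9 FPKM) and *Ctsd* (199.2 FPKM), which together made up 36.8% to 37.7% of the summed FPKM of the 40 genes in a sample. The lowest of the tested genes were *Idua* (1.96 FPKM), *Tfeb* (2.25 FPKM) and *Atp6v0c* (2.53 FPKM). *Ctsc*, which encodes cathepsin C, was the gene that did not pass the filter, with 0 to 5 fragments per sample. Within a group the tested genes varied little, with a median coefficient of variation of 3.02% with saline and 3.46% with StcE.

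**Figure D1:**
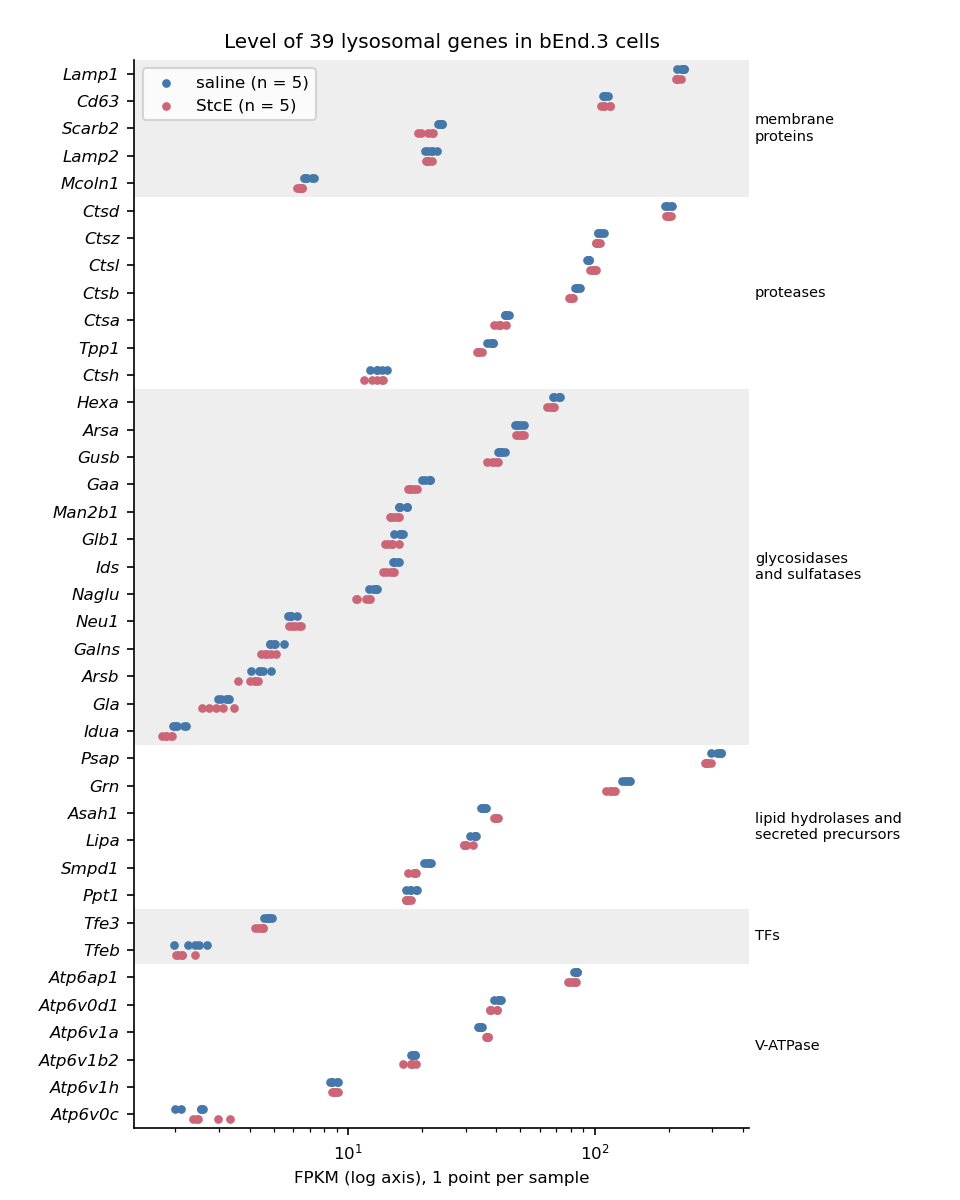
FPKM (log axis) of the 39 tested lysosomal genes in each of 5 saline and 5 StcE samples of bEnd.3 cells, 1 point per sample, grouped by role and ordered by level. Levels run from about the 1.96 FPKM of *Idua* to the 301.5 FPKM of *Psap*, and the shift between groups is small beside the range between genes.

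The comparison of StcE with saline asked how lysosomal transcripts differed after exposure to the enzyme. Cleavage of mucins is not measured by these values. Values were compared as log2(FPKM + 1) with limma, and a gene was past the threshold at an adjusted p under 0.05 over all 11062 tested genes. Of the 39 lysosomal genes, 8 were lower and 3 were higher after StcE. Over all tested genes 6.41% were lower, 5.52% higher and 11.9% changed in either direction, and the lysosomal genes stood at 28.2%. These shares were not matched for level, and 30 of the 39 lysosomal genes lay above the median level of all tested genes. The genes that fell were *Grn*, *Gaa*, *Smpd1*, *Scarb2*, *Tpp1*, *Psap*, *Lipa* and *Ctsb*, with mean FPKM that fell by 5.46% to 13.4%. The genes that rose were *Asah1*, *Atp6v1a* and *Ctsl*, by 5.38% to 12.6%. The log2 fold change was below 0 for 30 of the 39 (76.9%), against 50.4% of all tested genes. The median log2 fold change was -0.077 for the lysosomal genes and -6.6e-04 for all tested genes. Because the list was chosen with earlier results of these data known, these comparisons describe it and are not a test. Among the 10 endothelial markers, 9 had a log2 fold change below 0 (90%) with a median of -0.11, and their part in the lysosomal result was not tested. The changes were small throughout, with none larger than 0.20 on the log2 scale.

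For 11 of the 39 genes the highest StcE value was under the lowest saline value (background 5.8% of all tested genes), and for 3 the lowest StcE value was over the highest saline value (background 4.85%). The summed FPKM of all 40 genes also fell into separate ranges. It was 2008, 1991, 1995, 1985 and 1951 FPKM in saline replicates 1 to 5, and 1893, 1919, 1886, 1921 and 1880 FPKM in StcE replicates 1, 2, 3, 5 and 6. The sum is set largely by the few most abundant genes and was not tested.

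**Figure D2:**
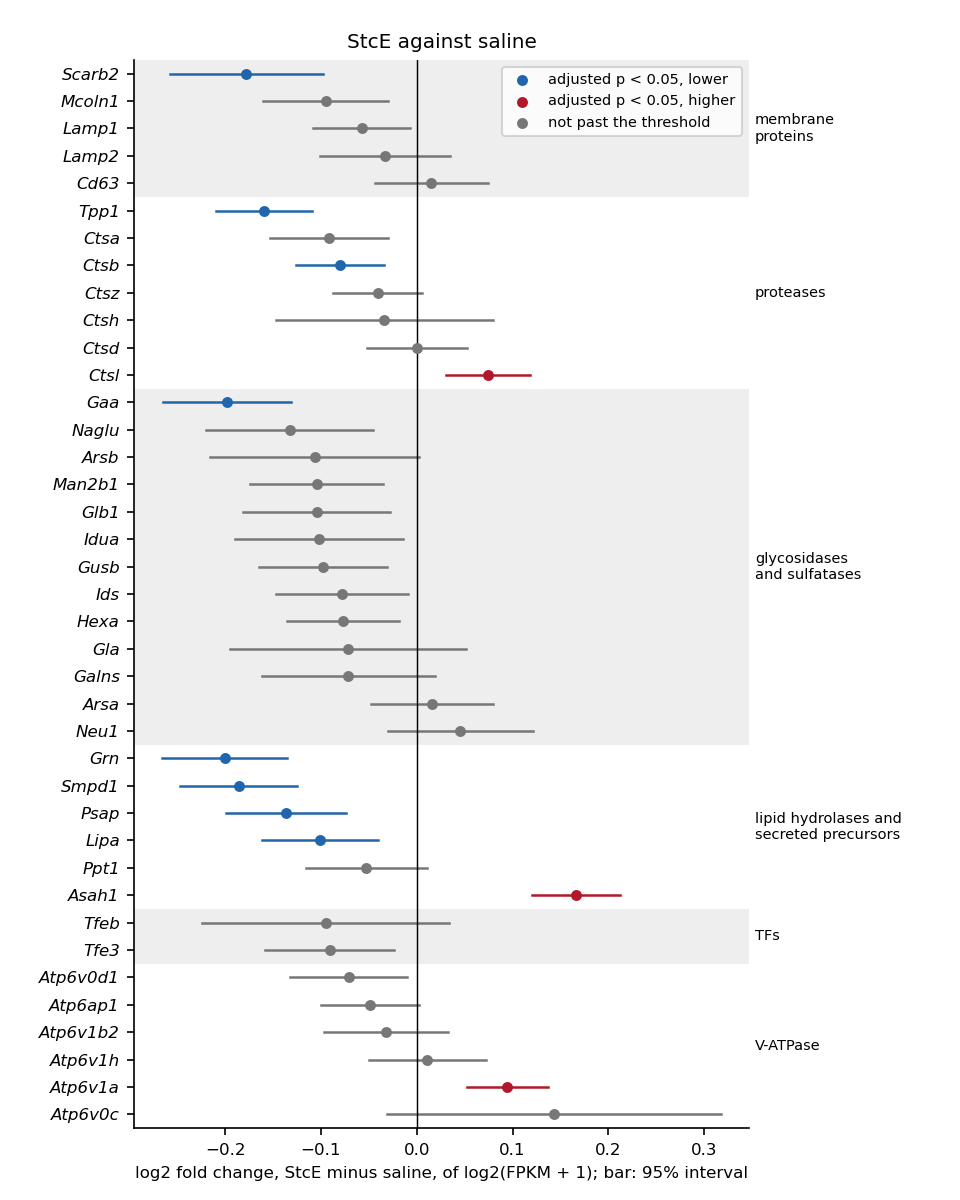
Log2 fold change (StcE minus saline, of log2(FPKM + 1)) of the 39 tested lysosomal genes with 95% intervals from limma (n = 5 per group), grouped by role. Most points lie left of 0, 8 genes are past the threshold and lower (blue), and *Asah1*, *Atp6v1a* and *Ctsl* are past it and higher (red).

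By role, proteins of lipid breakdown and the secreted precursors held the largest share of changes, with 4 of 6 genes lower and 1 higher. The roles held only 2 to 13 tested genes each and were not tested against each other. *Grn* (chromosome 11, 102430315 to 102437048 on GRCm38) encodes progranulin, a secreted glycoprotein that is taken into lysosomes and cut into granulins. Its FPKM was 138.8, 133.0, 134.1, 138.6 and 128.7 in the saline samples and 110.9, 120.0, 117.0, 121.4 and 116.1 in the StcE samples. The groups did not overlap, and the lowest value was that of StcE replicate 1. The mean went from 134.6 ± 4.20 (SD, n = 5) to 117.1 ± 4.08 FPKM, for a log2 fold change of -0.20 with a standard error (SE) of 0.0298 (limma, adjusted p = 0.00164).

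*Psap* (chromosome 10, 60277627 to 60302597) encodes prosaposin, the precursor of the saposins that present sphingolipids to their hydrolases, and binds progranulin. Its FPKM was 325.3, 319.4, 313.5, 324.4 and 296.7 with saline and 279.8, 289.8, 283.1, 297.1 and 285.8 with StcE. Saline replicate 5 lay below the other saline samples and just under StcE replicate 5, so that the groups touched. The log2 fold change was -0.14 with an SE of 0.0287 (limma, adjusted p = 0.0111).

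Acid sphingomyelinase and acid ceramidase, which act one after the other on sphingomyelin, moved in opposite directions. *Smpd1* (chromosome 7, 105554360 to 105558389), the gene of acid sphingomyelinase, had 21.3, 20.3, 21.0, 21.8 and 21.3 FPKM with saline and 17.5, 18.5, 18.6, 18.8 and 18.9 FPKM with StcE. All StcE values lay below all saline values, and the log2 fold change was -0.19 with an SE of 0.0277 (limma, adjusted p = 0.00167). *Asah1* (chromosome 8, 41340197 to 41374773), the gene of acid ceramidase, had 35.3, 36.2, 34.9, 34.8 and 35.9 FPKM with saline and 39.4, 39.1, 39.9, 40.8 and 40.1 FPKM with StcE. All StcE values lay above all saline values, and the log2 fold change of 0.17 with an SE of 0.0210 (limma, adjusted p = 5.0e-04) was the only one among the lysosomal genes past the threshold with an increase of over 10% in mean FPKM.

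*Lipa* (chromosome 19, 34492318 to 34527474) encodes lysosomal acid lipase, which frees cholesterol from the esters taken up with lipoproteins. It had 32.8, 33.1, 32.8, 32.8 and 31.3 FPKM with saline and 30.02, 32.2, 29.6, 30.2 and 29.5 FPKM with StcE. The groups overlapped through saline replicate 5 and StcE replicate 2, and the log2 fold change was -0.10 with an SE of 0.0277 (limma, adjusted p = 0.0371). *Ppt1*, a thioesterase that removes fatty acids from proteins, had 18.2 ± 0.733 and 17.5 ± 0.326 FPKM and was not past the threshold (limma adjusted p = 0.268).

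**Figure D3:**
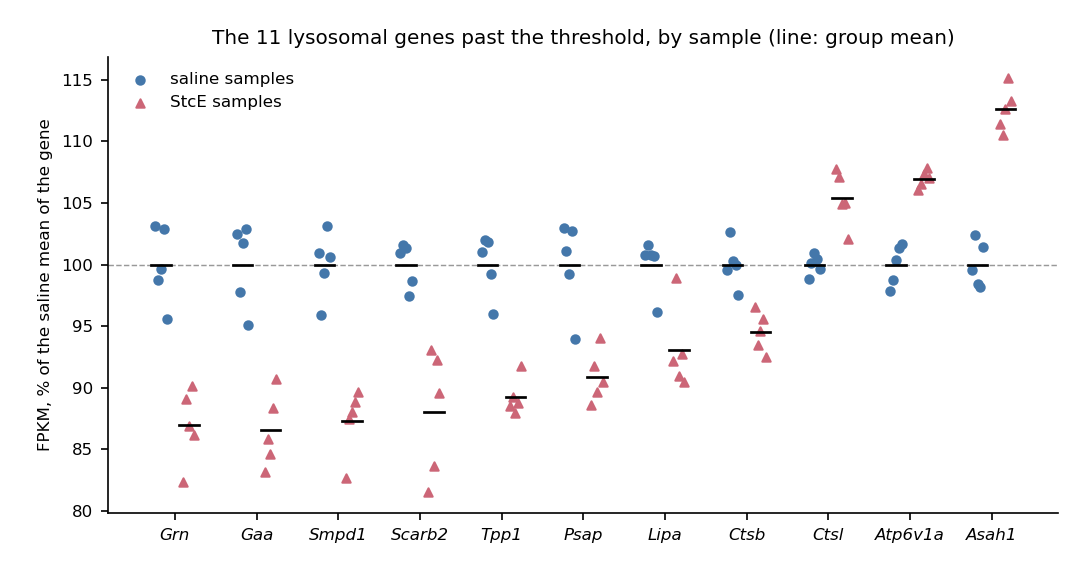
FPKM of the 11 lysosomal genes past the threshold in each sample, as a percentage of the gene's own saline mean, with circles for saline, triangles for StcE and a line at each group mean (n = 5 per group). The axis starts at about 80%, and the groups touch or overlap in *Psap* and *Lipa*.

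Of the 7 tested proteases, 2 were lower and 1 higher. *Tpp1* (chromosome 7, 105744811 to 105752235) encodes tripeptidyl peptidase 1, whose loss causes a childhood lysosomal storage disease of neurons. It had 38.5, 38.9, 38.8, 37.8 and 36.6 FPKM with saline and 33.7, 34.0, 33.5, 33.9 and 35.0 FPKM with StcE. The groups did not overlap, and the log2 fold change was -0.16 with an SE of 0.0231 (limma, adjusted p = 0.00138).

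The cysteine cathepsins B and L differed in direction. *Ctsb* (chromosome 14, 63122462 to 63145923) had 84.7, 87.3, 85.3, 85.0 and 83.0 FPKM with saline and 82.1, 79.5, 80.5, 81.3 and 78.7 FPKM with StcE, for a log2 fold change of -0.080 with an SE of 0.0208 (limma, adjusted p = 0.0298) and all StcE samples lower. *Ctsl* (chromosome 13, 64359337 to 64370890) had 93.1, 94.3, 95.1, 94.6 and 93.9 FPKM with saline and 101.5, 100.9, 98.8, 98.9 and 96.1 FPKM with StcE, for a log2 fold change of 0.075 with an SE of 0.0200 (limma, adjusted p = 0.0340) and all StcE samples higher. For both, genes on the opposite strand share part of the exon length, 12.8% for *Ctsb* (*Fdft1*) and 26.9% for *Ctsl*, and whether fragments were assigned by strand is not given in the sources used here. Near-identical copies in 24 other genes, the overlapping genes among them, cover 31.6% of the *Ctsl* transcript. Another gene on the same strand overlaps 6.09% of its exon length, so the count of *Ctsl* is uncertain. For *Ctsb* such a copy covers 16.3% of the transcript and lies in *Fdft1*, the gene that overlaps it, so that it can be the same overlap. The aspartic protease *Ctsd*, the most abundant of the group, had 199.2 ± 5.40 FPKM with saline and 199.2 ± 3.89 FPKM with StcE, a log2 fold change of 2.3e-04 with a 95% interval from -0.052 to 0.053. Another gene on the same strand covers 34.4% of its exon length. *Ctsa*, a carboxypeptidase that also stabilises lysosomal galactosidase and sialidase, had 44.0 ± 0.628 and 41.3 ± 1.70 FPKM (limma adjusted p = 0.0572), and neither *Ctsz* (0.233) nor *Ctsh* (0.716) was past the threshold. Genes on the opposite strand cover 17.4% of the exon length of *Ctsa*.

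The calls of *Ctsb*, *Ctsl* and *Lipa* rested on the full set of samples. Of the 10 fits that each left out 1 sample, *Ctsb* was past the threshold only without saline replicate 5 and without StcE replicate 1, *Lipa* only without saline replicate 5 and without StcE replicate 2, and *Ctsl* only without StcE replicate 6, with limma adjusted p of up to 0.0666, 0.0914 and 0.0811 in the others. The other 8 genes stayed past it in all 10 of these fits.

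Glycosidases and sulfatases, which remove sugars and sulfate groups from glycoproteins, glycolipids and glycosaminoglycans, had 1 of 13 genes past the threshold. *Gaa* (chromosome 11, 119267887 to 119285454), the glucosidase that degrades glycogen, had 21.5, 20.5, 21.4, 21.6 and 19.98 FPKM with saline and 17.5, 18.04, 17.8, 18.6 and 19.1 FPKM with StcE. The groups did not overlap, and the log2 fold change was -0.20 with an SE of 0.0306 (limma, adjusted p = 0.0020). A further 10 of the 13 had a log2 fold change below 0, from -0.13 to -0.071. *Naglu*, an enzyme of heparan sulfate breakdown, was nearest to the threshold, with 12.8 ± 0.403 and 11.6 ± 0.723 FPKM (log2 fold change -0.13, limma adjusted p = 0.0515). *Man2b1*, which trims mannose from N-glycans, came next, with 16.7 ± 0.607 and 15.4 ± 0.556 FPKM (log2 fold change -0.10, limma adjusted p = 0.0538).

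Without overlap between groups but not past the threshold were *Man2b1*, *Gusb* (β-glucuronidase, limma adjusted p = 0.0585) and *Idua* (an iduronidase of heparan and dermatan sulfate, 0.124). *Glb1* (β-galactosidase, 0.0782), *Hexa* (the α-subunit of hexosaminidase A, 0.0860), *Ids* (0.135) and *Gla* (0.444) had lower means and overlapping groups. The sulfatases *Galns* (5.05 ± 0.268 and 4.75 ± 0.260 FPKM) and *Arsb* (4.45 ± 0.304 and 4.06 ± 0.287 FPKM) were not past the threshold. Genes on the opposite strand cover 39.9% of the exon length of *Arsb*. The near-identical copies found for 59.9% of its transcript lie in these same genes and can be the same overlap, so its count is uncertain. Opposite-strand genes also cover 18.8% of the exon length of *Arsa* and 12.8% of that of *Hexa*. The 2 with a higher mean were *Neu1*, the lysosomal sialidase (5.90 ± 0.179 and 6.13 ± 0.298 FPKM, log2 fold change 0.045 with a 95% interval from -0.030 to 0.12), and *Arsa*, arylsulfatase A (49.4 ± 1.72 and 49.9 ± 1.46 FPKM, log2 fold change 0.016 with a 95% interval from -0.048 to 0.079).

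Of the 5 membrane proteins, 1 was lower. *Scarb2* (chromosome 5, 92441314 to 92506833) encodes LIMP-2, a membrane protein that also acts as a sorting receptor to lysosomes. Its FPKM was 23.9, 24.1, 24.0, 23.1 and 23.4 with saline and 19.3, 22.1, 19.8, 21.9 and 21.2 with StcE. All StcE samples were lower, with StcE replicates 1 and 3 the lowest, and the log2 fold change was -0.18 with an SE of 0.0365 (limma, adjusted p = 0.00978). *Mcoln1*, a channel that releases calcium from lysosomes, had no overlap between groups but was not past the threshold (6.91 ± 0.283 and 6.41 ± 0.108 FPKM, limma adjusted p = 0.0616). The structural proteins *Lamp1* (225.4 ± 5.56 and 216.5 ± 4.06 FPKM, limma adjusted p = 0.131), *Lamp2* (21.7 ± 0.967 and 21.2 ± 0.464 FPKM, 0.527) and the tetraspanin *Cd63* (110.1 ± 1.80 and 111.3 ± 4.15 FPKM, 0.757) were not past it either. Near-identical copies in another gene cover 73.2% of the *Cd63* transcript, so its count is uncertain. A gene on the opposite strand covers 9.31% of the exon length of *Lamp1*.

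Of the 6 tested subunits of the proton pump, 1 was higher and 0 lower, and 3 had a log2 fold change below 0. *Atp6v1a* (chromosome 16, 44085402 to 44139705), the catalytic subunit of V1, had 33.6, 33.9, 34.4, 34.8 and 34.9 FPKM with saline and 36.4, 36.6, 36.8, 37.0 and 36.7 FPKM with StcE. The groups did not overlap, and the log2 fold change was 0.095 with an SE of 0.0193 (limma, adjusted p = 0.00936). Of the other 5 pump genes, 0 were past the threshold with limma or with limma-voom on recovered fragments, and 1 (*Atp6v0d1*) had an unadjusted p under 0.05. *Atp6v0d1* (40.8 ± 1.06 and 38.8 ± 1.299 FPKM), a V0 subunit that joins the sectors, had a limma adjusted p of 0.123, and *Atp6ap1* (84.1 ± 0.829 and 81.3 ± 2.47 FPKM), an accessory subunit, one of 0.203. The V1 subunits *Atp6v1b2* (18.4 ± 0.282 and 18.01 ± 0.773 FPKM) and *Atp6v1h* (8.76 ± 0.292 and 8.84 ± 0.186 FPKM) had 95% intervals of the log2 fold change from -0.097 to 0.033 and from -0.050 to 0.072. *Atp6v0c*, the proton-carrying ring subunit, was listed at 1.997 to 3.32 FPKM, and near-identical copies in 2 other genes cover 39.5% of its transcript, so that its level and its log2 fold change (0.14, limma adjusted p = 0.270) are uncertain.

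The transcription factors were expressed at low levels. *Tfe3* had 4.85, 4.72, 4.55, 4.74 and 4.91 FPKM with saline and 4.33, 4.19, 4.53, 4.45 and 4.52 FPKM with StcE. All StcE samples were lower, but *Tfe3* missed the threshold, with a log2 fold change of -0.091 (limma adjusted p = 0.0798). *Tfeb* had 2.49, 2.41, 2.68, 2.25 and 1.98 FPKM with saline and 2.13, 2.41, 2.04, 2.01 and 2.13 FPKM with StcE, with 273 to 430 fragments per sample behind these values. The groups overlapped, and the 95% interval of its log2 fold change ran from -0.22 to 0.034. These factors are regulated mainly by their phosphorylation and entry into the nucleus, which transcript levels do not measure.

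In all, 28 of the 39 genes were not past the threshold. Their log2 fold changes ran from -0.13 to 0.14, and 95% intervals lay wholly below 0 for 12 of them, wholly above 0 for 0 and included 0 for 16. For each of the 9 genes past the threshold without overlap between groups, and for the 5 others without overlap, the exact two-sided permutation test of the difference gave p = 0.00794, the smallest that the 252 arrangements of 5 against 5 samples allow. For *Psap* and *Lipa* the exact test gave p = 0.0159.

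Other genes of the lysosome were read from lists of the same pathway. Of 21 further tested hydrolases and cofactors, 4 were lower and 0 higher (median log2 fold change -0.085), and of the 4 with a log2 fold change above 0 none had an unadjusted p under 0.05. The genes that were lower included *Sgsh* (6.72 ± 0.379 and 5.46 ± 0.567 FPKM, log2 fold change -0.26, limma adjusted p = 0.0164) and *Hgsnat* (-0.15, 0.0211), both enzymes of heparan sulfate breakdown, and *Fuca1* (-0.13, 0.0208), which removes fucose. Among 14 further membrane proteins and transporters, the nucleoside transporter *Slc29a3* (log2 fold change -0.16, limma adjusted p = 0.0429) and *Laptm4a* (-0.11, 0.0393) were lower and *Tmem192* (0.17, 0.0148) was higher. Of the 11 further tested V-ATPase subunits, 0 were past the threshold with limma and 0 of 9 with limma-voom, 1 had an unadjusted p under 0.05, and 8 had a log2 fold change above 0 (median 0.017, range -0.0095 to 0.091).

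Lists of the steps before and around the lysosome held 4 genes past the threshold. Of 12 genes of mannose 6-phosphate tagging and sorting, 2 were lower, the sorting receptor *Sort1* (1.71 ± 0.2004 and 1.22 ± 0.0780 FPKM, log2 fold change -0.29, limma adjusted p = 0.00775) and *Nagpa* (-0.10, 0.0474), which uncovers the mannose 6-phosphate tag. Of 17 tested relatives of TFEB and genes of mTORC1 control at the lysosome, 1 was higher, the scaffold subunit *Lamtor3* (9.18 ± 0.248 and 10.3 ± 0.398 FPKM, log2 fold change 0.15, limma adjusted p = 0.0111). Of 18 autophagy genes, 1 was lower, the receptor *Nbr1* (log2 fold change -0.10, limma adjusted p = 0.0265). The median log2 fold changes of these lists were -0.057, 0.022 and 0.019. Across the 6 lists 11 of 93 tested genes were past the threshold (11.8%, 9 lower and 2 higher), close to the 11.9% of all tested genes. The share differed between lists. It was 19.0% for the further hydrolases, 21.4% for the further membrane proteins and 16.7% for tagging and sorting. It was 5.88% for the mTORC1 list, 5.56% for autophagy and 0% for the further V-ATPase subunits.

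**Figure D4:**
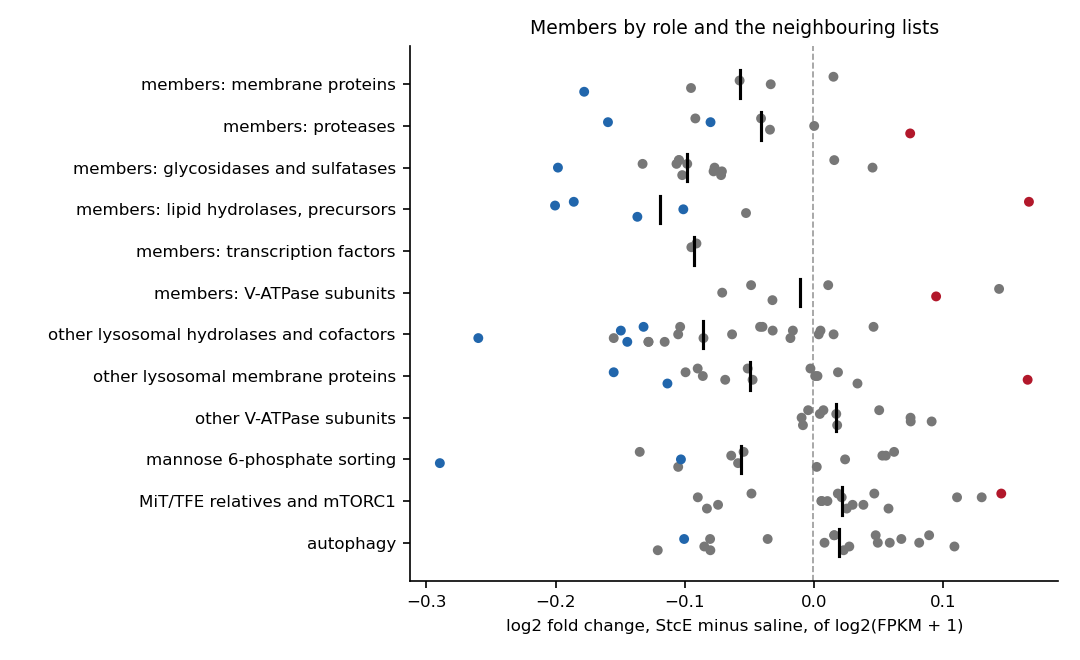
Log2 fold change (StcE minus saline) of each tested gene, with the lysosomal genes by role in the upper 6 rows and the 6 neighbouring lists below, blue for lower and red for higher past the threshold, grey otherwise. Black lines mark medians, from -0.12 for the lipid hydrolases and precursors to 0.022 for the mTORC1 list, and the dashed line marks the median of all tested genes.

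Promoter windows from RefSeq (GRCm38.p6, 250 bases before to 50 after a transcription start) were searched on both strands for the core of the E-box that TFEB and TFE3 bind, CACGTG, and for its extended form GTCACGTG, which contains the core. A window was given for 33 of the 39 tested genes. The core stood in the window of 12 of these 33 (36.4%), against 12.5% of 8013 tested genes and 8.09% of all 27025 genes with a window. The extended form stood in 9 (27.3%), against 5.23% and 2.55%. Of the 9 genes with the extended form, 0 were past the threshold with limma, 6 had an unadjusted p under 0.05, and 1 (*Naglu*) was past it with limma-voom on recovered fragments. Their log2 fold changes ran from -0.13 (*Naglu*) to 0.016 (*Arsa*), with a median of -0.072, against -0.095 for the 21 genes whose window held neither form. A match of letters is a description of the window and not a bound site, and the classes were not tested against each other.

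The sequences below show a promoter with several cores, examples of the extended form, and the 3 genes past the threshold that had a core. Each core is in capitals, and bases are written 5′ to 3′ in the direction of the gene. *Lamp1*, whose window held the most cores (4), is shown over the 70 bases before its start (chr8:13159091-13159160, plus strand). *Glb1* (chr9:114401018-114401047, plus strand) and *Ctsd* (chr7:142387908-142387937, minus strand) carry the extended form. The *Ctsd* window held another core, 245 bases before its start, which is not shown. *Gaa* (chr11:119267811-119267840, plus strand), *Ctsl* (chr13:64370739-64370768, minus strand) and *Atp6v1a* (chr16:44139373-44139402, minus strand) carry the core alone.
Lamp1: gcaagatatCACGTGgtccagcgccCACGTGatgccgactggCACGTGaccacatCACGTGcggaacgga
Glb1: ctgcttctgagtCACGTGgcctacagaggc
Ctsd: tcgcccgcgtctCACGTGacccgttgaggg
Gaa: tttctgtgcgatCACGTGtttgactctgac
Ctsl: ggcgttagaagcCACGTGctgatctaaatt
Atp6v1a: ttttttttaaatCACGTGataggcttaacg

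Counted from the RefSeq start, the cores of *Lamp1* began 61, 45, 28 and 15 bases before it. The single cores of *Gaa*, *Ctsl* and *Atp6v1a* began 140, 236 and 131 bases before theirs. These distances depend on the start used. The spans given above for *Gaa*, *Ctsl* and *Atp6v1a* begin upstream of their RefSeq starts, and the cores of *Ctsl* and *Atp6v1a* lie inside those spans. After StcE *Gaa* fell, and *Ctsl* and *Atp6v1a* rose. The windows of *Grn*, *Psap*, *Smpd1*, *Scarb2*, *Tpp1* and *Lipa*, the other genes that fell and had a window, held no core.

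**Figure D5:**
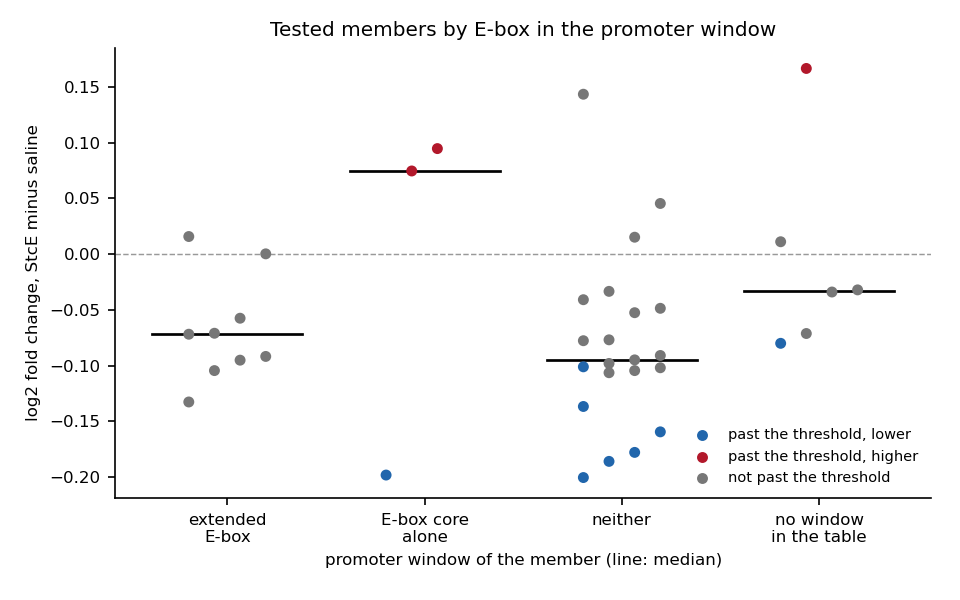
Log2 fold change (StcE minus saline) of the 39 tested lysosomal genes by whether their promoter window holds the extended E-box (9 genes), the core alone (3), neither (21) or is not in the table (6), blue for lower and red for higher past the threshold, with a line at each median. The genes with the extended form are all grey, and 6 of the 8 genes that fell are among those with neither form.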

How the data were processed

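RNA from 10 bEnd.3 samples was made into strand-specific poly(A) libraries. The authors used mm10 (GRCm38) and deposited FPKM per sample, and the submitters' processing notes name HISAT2 2.0.5, featureCounts 1.5.0-p3 and DESeq2 1.32.0. The annotation release is not given in the sources used here. A further 22874 rows were empty.

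FPKM of at least 1 on average were put on a log2 scale after adding 1 and compared by limma 3.58.1 under R 4.3.3 (eBayes with trend, condition as the sole term, Benjamini-Hochberg adjustment over all genes tested). Fold changes on this scale understate those of low genes. With GENCODE vM21 exon lengths, 96.6% of the values above 0 came out as whole fragments (within 0.05), and intervals from fragments cover counting error only. Near-identical copies were transcripts of other genes with at least 95% identity over at least 150 bases (BLAST 2.17.0). Both strands were searched, so genes that overlap a lysosomal gene at its own place count among them.

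All list genes with a row were described, and of the neighbouring lists at most the 4 largest changes in each direction past the threshold were named, except where a result is not reported here. The members and lists were chosen with earlier results of these data known. Alternatives were another pseudocount, filters, scalings, eBayes settings, array weights, voom on fragments, a replicate block and each sample left out.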

Additional observations from a re-analysis of the deposited data

Results flagged for a closer look

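A sample stood apart from the other 4 of its group in 3 of 80 groups examined (40 genes in 2 conditions), where chance gives about 4. *Lamp1* was at 223.6 FPKM in StcE replicate 2 against 213.2 to 215.6 FPKM in the other StcE samples. *Lipa* read 31.3 FPKM in saline replicate 5, while the other saline samples held 32.8 to 33.1 FPKM, and at 32.2 FPKM in StcE replicate 2 against 29.5 to 30.2 FPKM in the other StcE samples.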

How the results depend on the processing

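Over 818 refits of the 39 genes (21 alternatives, with *Lipa* not fitted on fragments), 765 left a gene on the same side of the threshold, 40 ended a call, 13 made one and 0 turned the sign of a called gene. In the fit blocked by replicate number (8 samples), 3 lysosomal genes (2 lower, *Tpp1* and *Smpd1*, and 1 higher, *Asah1*), 349 of all tested genes (162 lower, 187 higher) and 1 gene of the neighbouring lists (1 lower, 0 higher) were past the threshold. The deviations of same-numbered samples from their group means correlated at -0.0966 to 0.0538. These correlations cannot show whether samples with the same number were handled together. A fit of the same 8 samples with no block, added after seeing the data, gave 9 lysosomal genes, 452 lower genes in all and 7 of the neighbouring lists (1 higher). Without a filter on low FPKM, 801 genes in all (409 lower, 392 higher) and 6 of the lists (4 lower) were past it. With 1 sample left out, there were 8 to 12 lysosomal genes (6 to 10 lower, 2 to 3 higher), 793 to 1255 genes in all (409 to 667 lower, 384 to 588 higher) and 5 to 11 of the lists (3 to 9 lower). The lowest counts for all genes and the lists were without StcE replicate 3 (793 and 5). Without saline replicate 1 there were 838 genes in all, and without StcE replicate 1 there were 7 of the lists. For the fits with fewer samples or more genes tested the construction changes the count, and otherwise the cause was not tested. Of the tested genes, *Atp6v0c*, *Idua* and *Gla* had the fewest fragments per sample.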

Other observations

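Enzymes of heparan sulfate breakdown stood on both lists of hydrolases, and they are set together here after their values were seen, so no test was run over them. The lysosomal genes *Naglu*, *Idua*, *Ids* and *Gusb* and the further genes *Sgsh* and *Hgsnat* all had a lower mean FPKM after StcE. *Sgsh* was at 7.002, 6.56, 6.56, 7.22 and 6.28 FPKM with saline and 4.93, 5.60, 4.82, 5.89 and 6.09 FPKM with StcE, without overlap. *Sgsh* and *Hgsnat* were past the threshold, and *Naglu* (limma adjusted p = 0.0515), *Gusb* (0.0585), *Idua* (0.124) and *Ids* (0.135) were not.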
